A study of Homo sapiens with 11 samples.

Results

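The messenger RNAs of the cytosolic ribosomal proteins were followed through 4 drugs in 2 human cancer cell lines. The genes were taken by name: every row of the count tables whose symbol has the form RPL, RPS, RPLP or RPSP, then a number and at most the letter A or X, together with RPSA. This gave 77 of 23228 genes, 46 for proteins of the large (60S) ribosomal subunit and 31 for proteins of the small (40S) subunit. The symbol rule uses no measured value.

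U2OS is an osteosarcoma line and MDA-MB231 a basal breast cancer line, each an established line. Both were exposed for 8 h to 1 µM doxorubicin, 20 µM etoposide, 0.2 µM paclitaxel or 40 µg/mL methyl methanesulfonate (MMS), doses given as those that reach IC50 at 72 h. Control cells had the vehicle DMSO, for a time the labels do not state. Doxorubicin, an anthracycline, and etoposide both trap topoisomerase II on DNA, and doxorubicin also slips between base pairs. MMS is an alkylating agent, and paclitaxel freezes microtubules. The 11 RNA-seq libraries are 1 for each drug in each line, 1 for DMSO in U2OS and 2 for DMSO in MDA-MB231. Of the latter, replicate 1 is titled like the other MDA-MB231 libraries except MMS, and replicate 2 is titled like MMS, with 8 h added; the latter is labelled both as DMSO and as untreated, and was read as DMSO. No genetic change is named for either line, and nothing in the labels says that the libraries came from separate cultures, so p-values measure how far the 2 lines disagree.

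A ribosome is built from ribosomal RNA and one copy of nearly every ribosomal protein, and the stalk proteins RPLP1 and RPLP2 are the exception in being present in more than one copy. The genes are scattered over the chromosomes, are transcribed at high rates in growing cells, and most of their mRNAs begin with a terminal oligopyrimidine (TOP) tract, a C followed by a run of pyrimidines, through which the mTORC1 pathway and LARP1 control their translation. Cells make the subunits in step, and RPL5 and RPL11, when not built into ribosomes, bind MDM2 together with the 5S rRNA.

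The TOP tract is the sequence feature the family is known for, and it was looked for in RefSeq's annotated start regions (GRCh38.p14), read on the gene's own strand. The search asked for a C at the annotated start, counted as base 1, followed by at least 4 C or T bases. Of the 77 genes 62 had a start region, and 46 of these, 74.2%, held the run at an annotated start. The share was 73.7% for the large and 75% for the small subunit, against 7.25% of the 10658 tested genes with a start region and 8.96% of mitochondrial ribosomal protein genes, whose products serve the separate ribosome of mitochondria. The windows below show 15 bases before and 25 bases from the start, with the pyrimidine run in capitals, for genes whose values recur in the results: the gene with the highest doxorubicin value (RPS10, chr6:34426045-34426084, minus strand), 2 stalk genes (RPLP1, chr15:69452803-69452842, plus strand, and RPL12, chr9:127451382-127451421, minus strand), the gene with the lowest called etoposide value (RPL22, chr1:6199571-6199610, minus strand), the gene called lower with doxorubicin (RPL36A, chrX:101390996-101391035, plus strand), and 2 genes whose run lies downstream of the annotated start (RPS15, chr19:1438381-1438420, plus strand, and RPL4, chr15:66504831-66504870, minus strand).
RPS10: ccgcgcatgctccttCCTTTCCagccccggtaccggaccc
RPLP1: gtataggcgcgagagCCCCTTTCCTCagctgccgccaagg
RPL12: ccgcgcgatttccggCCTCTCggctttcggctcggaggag
RPL22: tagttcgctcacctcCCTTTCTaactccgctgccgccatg
RPL36A: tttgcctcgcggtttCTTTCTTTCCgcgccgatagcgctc
RPS15: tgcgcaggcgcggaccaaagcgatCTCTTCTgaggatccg
RPL4: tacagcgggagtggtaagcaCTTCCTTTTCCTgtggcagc
The genes at both ends of the doxorubicin range, RPS10 and RPL36A, carry the run at their start. RPS15 and RPL4, near the high and the low end with log2 fold changes of 1.38 and 0.28, do not. A run in an annotated window is a description of the reference, since start sites were not measured here.

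Reads assigned to genes numbered 16774156 to 31588683 a library. Levels are counts divided by each library's TMM-scaled total, in the usual CPM unit. Of the 77 genes 56 had 100 CPM or more in every library, 5 stayed under 10 CPM in every library, and 2 of these 5 had too few reads to be tested, among them RPL21 with 0 or 1 read a library. Ribosomal protein genes have many near-identical processed pseudogenes, and reads that align to several places were not assigned to a gene, so a low level here is no measure of how much of the mRNA was present. The read-through genes RPS10-NUDT3 and RPL36A-HNRNPH2 were listed at 0 reads in all 11 libraries, and their exons overlap those of RPS10 and RPL36A. What part of each gene the counted reads of RPS10 and RPL36A came from was not tested. The markers fit the line names only in part. ALPL, an enzyme of bone-forming cells, was at 1.81 to 12.9 CPM in U2OS and at no more than 0.28 CPM in MDA-MB231, but the osteoblast gene SP7 reached no more than 0.63 CPM and BGLAP 0.10 CPM in any library. VIM, a mesenchymal gene that MDA-MB231 is known for, was at 604 to 2659 CPM there and at 597 to 2698 CPM in U2OS. The luminal genes ESR1 and PGR were at 0.61 CPM or less in all 11. Of the 6 luminal genes read, however, 4 exceeded 1 CPM in every U2OS library and 3 in every MDA-MB231 library. Of the 8 basal and mesenchymal genes 6 did so in U2OS and 5 in MDA-MB231, and of the 8 osteoblast genes 5 and 3.

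**Figure D1:**
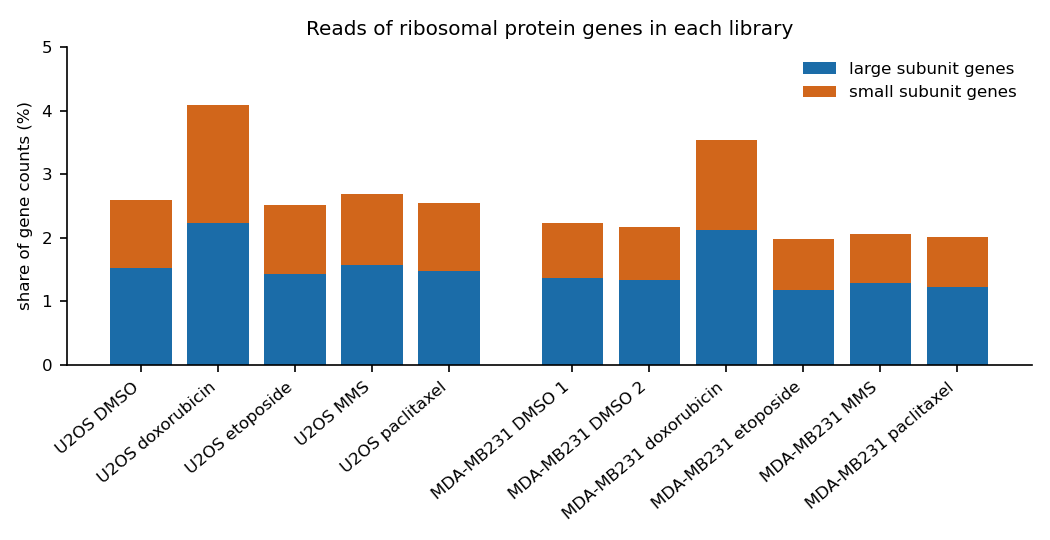
Share of all gene-assigned reads that fell on ribosomal protein genes in each of the 11 libraries, large subunit genes below and small subunit genes above. The doxorubicin bars reach 4.09% (U2OS) and 3.54% (MDA-MB231), while the other 9 libraries lie between 1.98% and 2.69%.

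Ribosomal protein mRNAs took a larger part of the reads in both doxorubicin libraries than in any other. In U2OS they made up 2.59% of gene-assigned reads with DMSO and 4.09% with doxorubicin, and etoposide (2.52%), MMS (2.69%) and paclitaxel (2.54%) stayed near the DMSO share. In MDA-MB231 the DMSO libraries had 2.24% and 2.17%, doxorubicin 3.54%, etoposide 1.98%, MMS 2.06% and paclitaxel 2.02%. Each share has a 95% exact binomial (Clopper-Pearson) interval narrower than 0.02 percentage points, which covers counting error only. The doxorubicin share stands apart from all others in its line, as the bars of the share by library show. These are shares of RNA from whole cultures, in which more of these mRNAs per cell cannot be told apart from less of the other RNA, nor fewer cells from less RNA per cell. Reads tabulated as aligned to several places moved the same way: 37.5% of all reads with doxorubicin against 32.7% with DMSO in U2OS, and 34.4% against 30.0% and 30.4% in MDA-MB231, and their part in the result was not tested.

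Reads of the large subunit outnumbered those of the small subunit in every library, by 1.42 times with DMSO in U2OS and by 1.55 times and 1.61 times in the MDA-MB231 DMSO libraries. With doxorubicin the quotient was 1.20 in U2OS and 1.49 in MDA-MB231. Both are below the DMSO libraries of their line, and the U2OS value is the lowest of the 11. With etoposide it was 1.31 and 1.46, also below the DMSO libraries of each line, and in MDA-MB231 below the doxorubicin value. With MMS it was 1.40 and 1.65, and with paclitaxel 1.40 and 1.57.

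Doxorubicin gave the broadest response. Of 75 genes tested 68 rose and 1 fell, with a median log2 fold change over both lines of 0.84 (1.78-fold), by edgeR's quasi-likelihood test at a Benjamini-Hochberg adjusted p under 0.05. Over all 15888 genes tested the median was 0.07, with 21.9% called higher and 20.6% lower. Abundant genes were called higher more often: among the 2702 genes with a mean of at least 100 CPM, a group formed after the values were seen, it was 36.2%, and 57 of the 60 ribosomal protein genes there. The small subunit had 29 of 30 genes called higher and a median of 0.98, and the large subunit 39 of 45 called higher, 1 called lower and a median of 0.79. The 2 medians differ by 0.19, which is set against no error because genes of a subunit are not replicates.

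**Figure D2:**
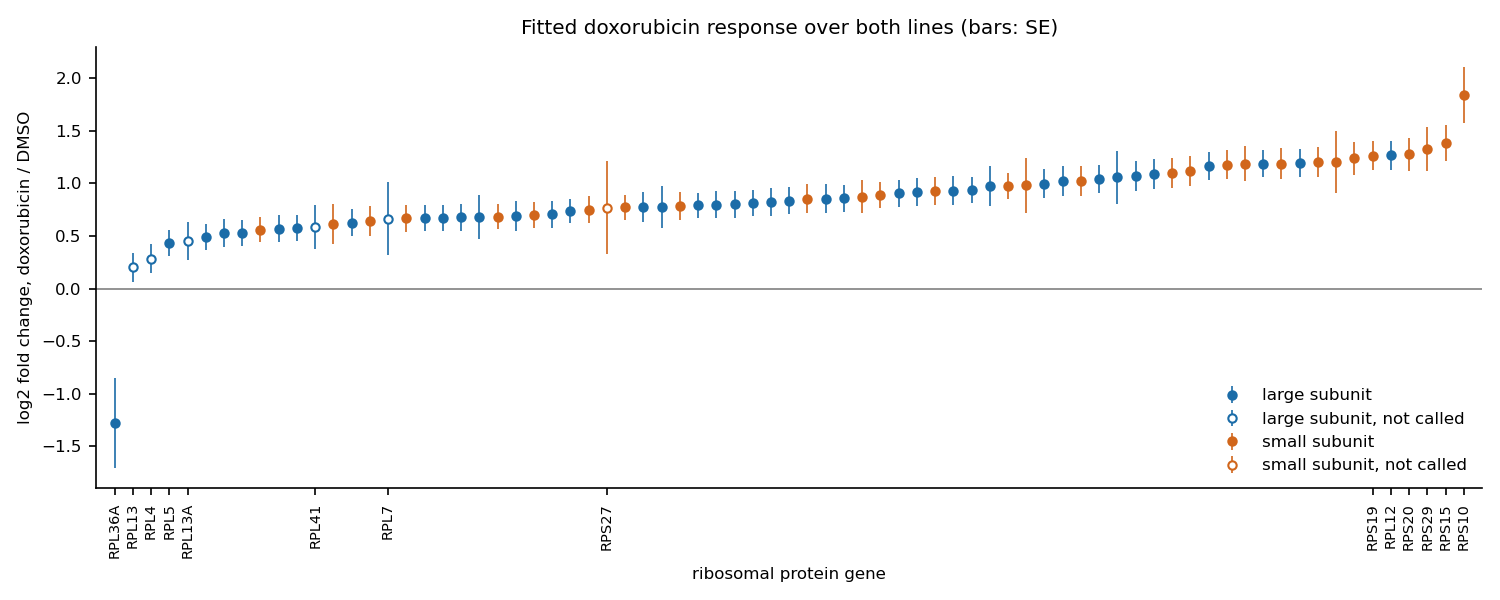
Fitted log2 fold change of each of the 75 tested genes, doxorubicin against DMSO over both lines, ordered by size, with bars of 1 SE and with the genes at both ends and those not called named. Filled points passed an adjusted p of 0.05 and open points did not. RPL36A is the single gene below 0, the lower end is otherwise held by large subunit genes such as RPL13, RPL4 and RPL5, and 5 of the 6 highest are small subunit genes.

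The order of libraries showed the same without a model. In 71 of the 75 genes the doxorubicin library was above every other library of its line, in both lines, against 25.0% of all genes tested. The exceptions were RPL13, RPL13A, RPL36A and RPS27. There were 71 genes with at least 5 CPM in both lines, read on the larger of the doxorubicin and DMSO libraries. All 71 were higher than DMSO in both, against 39.1% of 10525 genes. In 56 the rise was 1.5-fold or more in both, against 16.7%.

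The highest values belonged to the head of the small subunit, the part that swivels during translocation. RPS10, at the beak side of the head and mutated in some cases of Diamond-Blackfan anaemia, had 5.84 CPM in the U2OS DMSO library and 24.8 with doxorubicin, beside 7.19 (etoposide), 5.50 (MMS) and 8.60 (paclitaxel). In MDA-MB231 it had 8.54 and 7.50 CPM with DMSO and 24.6 with doxorubicin, beside 11.2 (etoposide), 7.63 (MMS) and 8.56 (paclitaxel). Only the doxorubicin libraries exceeded 20 CPM, and the other 9 did not overlap them. Its fitted log2 fold change was 1.84 ± 0.27 (SE; 3.58-fold; edgeR adjusted p = 0.001), from 114 to 526 reads a library.

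RPS15, a head protein near the decoding site, had 59.7 CPM with DMSO and 195 with doxorubicin in U2OS, and between 54.6 and 65.5 with the other drugs. In MDA-MB231 it had 92.5 and 96.6 CPM with DMSO, 188 with doxorubicin and 75.1 to 83.7 with the others. Both doxorubicin values are more than any other value of the gene, and the log2 fold change was 1.38 ± 0.17 (SE; edgeR adjusted p = 0.000591). RPS29, RPS20 and RPS19, which also sit in the head, followed at 1.33 ± 0.21, 1.28 ± 0.16 and 1.26 ± 0.14 (SE). RPS19, the first gene linked to Diamond-Blackfan anaemia, had 710 CPM with DMSO against 1990 with doxorubicin in U2OS, and 503 and 422 against 1051 in MDA-MB231. All 13 tested head genes rose, with a median of 1.19 and a range of 0.75 to 1.84. RPS2 and RPS3, which line the entry of the mRNA channel, rose by 1.20 and 0.85.

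The stalk of the large subunit, which recruits the elongation factors, rose as a whole. RPLP0, the stalk base, had 563 CPM with DMSO and 1345 with doxorubicin in U2OS, and 690 and 774 against 1198 in MDA-MB231. RPLP1 had 885 and 2040 CPM in U2OS, and 268 and 305 against 617 in MDA-MB231. RPLP2 had 208 and 481 CPM in U2OS, and 241 and 275 against 523 in MDA-MB231. In each of these genes the doxorubicin library was the highest of its line. The log2 fold changes were 1.02 ± 0.14 for RPLP0, 1.19 ± 0.13 for RPLP1, 1.19 ± 0.13 for RPLP2 and 1.27 ± 0.14 for RPL12 (SE), the latter the highest of the large subunit. RPLP1 lost its call in 1 of 21 alternatives, the fit that did not pair libraries by line.

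The pair that joins 5S rRNA split in size. RPL11 had 836 CPM with DMSO and 1603 with doxorubicin in U2OS, and 671 and 674 against 1126 in MDA-MB231, a log2 fold change of 0.86 ± 0.13 (SE; edgeR adjusted p = 0.0013). RPL5 had 599.9 CPM with DMSO and 802 with doxorubicin in U2OS, and 594 and 618 against 829 in MDA-MB231, at 0.44 ± 0.12 (SE; edgeR adjusted p = 0.0196). Both genes were highest in the doxorubicin library of each line, but RPL5 is near the low end of the family and lost its call in 7 of 21 alternatives, among them those without the MDA-MB231 doxorubicin library (0.29), MDA-MB231 DMSO replicate 1 (0.45) or the U2OS DMSO library (0.40). All 8 genes at the rim of the exit tunnel, where the new chain leaves the ribosome, rose, with a median of 0.80 and a range of 0.67 to 1.09. RPSA and RPS6 stand for 2 further functions: RPSA, also known as the laminin receptor, rose by 1.12 ± 0.15, and RPS6, the protein phosphorylated by S6 kinase, rose by 0.56 ± 0.12, the lowest value of the small subunit (SE). RPS6 lost its call in 2 of 21 alternatives, without MDA-MB231 DMSO replicate 1 and in the fit that did not pair libraries by line, and in the latter RPSA, RPS19 and RPS20 lost theirs too.

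Of the 18 tested genes on the list of those mutated in Diamond-Blackfan anaemia, an inherited failure of red cell production, 17 rose and none fell, with a median of 0.85. RPS27 was the gene that missed the threshold. This share is like that of the whole family, 68 of 75.

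**Figure D3:**
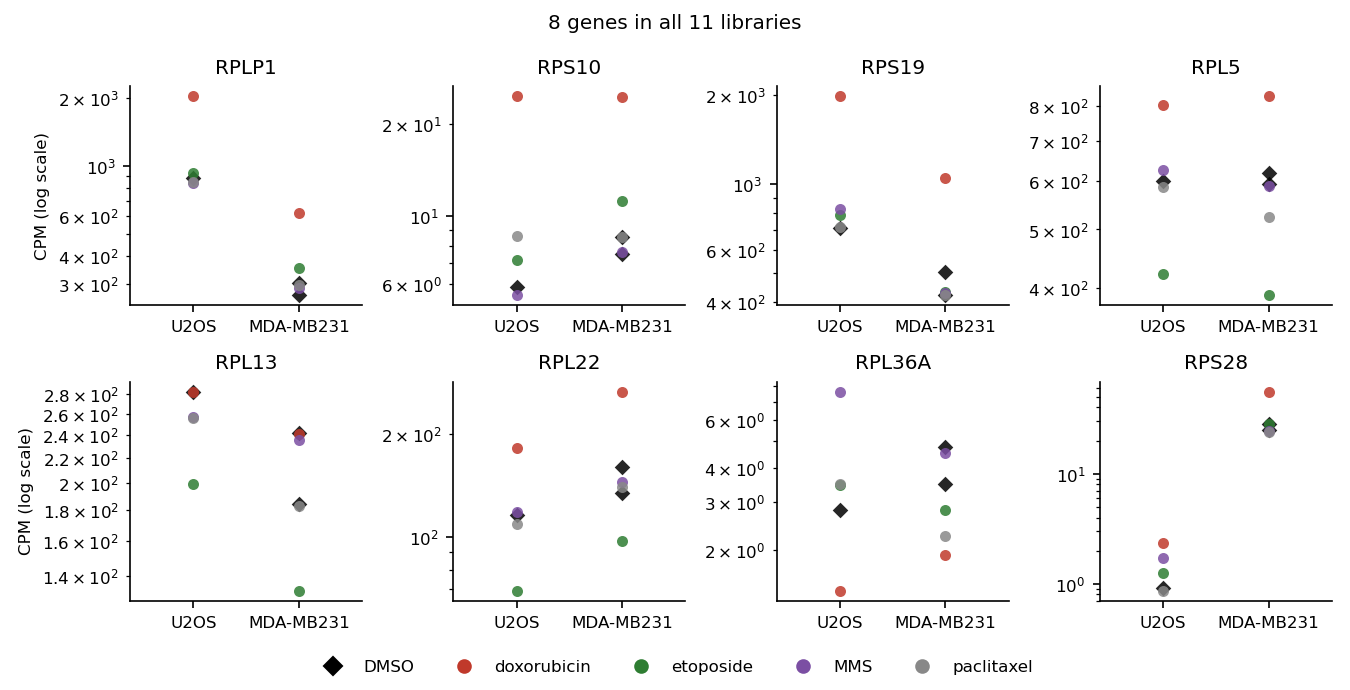
CPM on a log scale of 8 genes in all 11 libraries, U2OS on the left and MDA-MB231 on the right of each panel, with 1 diamond (U2OS) or 2 diamonds (MDA-MB231) for DMSO. Doxorubicin is at the top for RPLP1, RPS10, RPS19, RPL5, RPL22 and RPS28 in both lines and at the bottom for RPL36A, and etoposide is at the bottom for RPL5, RPL13 and RPL22.

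RPL36A went the other way. In U2OS it had 2.82 CPM with DMSO and 1.42 with doxorubicin, beside 3.46 (etoposide), 7.60 (MMS) and 3.48 (paclitaxel). In MDA-MB231 it had 4.76 and 3.50 CPM with DMSO and 1.92 with doxorubicin, beside 2.80 (etoposide), 4.54 (MMS) and 2.25 (paclitaxel). The doxorubicin library was the lowest of each line, which held for no other member and for 20.6% of all genes tested. The log2 fold change was -1.28 ± 0.43 (SE; edgeR adjusted p = 0.0391), but it rests on 29 to 195 reads a library, and the call was lost in 8 of 21 alternatives, with values from -1.66 to -0.94. Those without MDA-MB231 DMSO replicate 1, MDA-MB231 DMSO replicate 2, or any 1 of the doxorubicin and MMS libraries were among them. RPL36AL, an intronless copy that encodes nearly the same protein and lies outside the symbol rule, was at -0.07 (edgeR adjusted p = 0.826).

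The 6 genes that did not pass the test for doxorubicin were all above 0. RPL13 was at 0.20 ± 0.14, RPL4 at 0.28 ± 0.13, RPL13A at 0.45 ± 0.18, RPL41 at 0.58 ± 0.21, RPL7 at 0.67 ± 0.35 and RPS27 at 0.77 ± 0.44 (SE), with edgeR adjusted p from 0.0501 for RPL41 to 0.271 for RPL13. RPL7 and RPS27 stayed under 6 CPM, whereas RPL13 and RPL4 were well measured. RPL13 had 282 CPM with DMSO and 283 with doxorubicin in U2OS, and 184 and 242 against 240 in MDA-MB231. RPL4, which reaches into the exit tunnel, had 972 and 1061 CPM in U2OS, and 409 and 476 against 563 in MDA-MB231. For RPL13 the doxorubicin level was that of DMSO in U2OS and lay between the 2 DMSO levels in MDA-MB231, and its fitted value turned to -0.012 with scaling by total counts and to -0.032 without the MDA-MB231 doxorubicin library. RPL13A, a protein that can leave the ribosome after phosphorylation, had 148 and 173 CPM in U2OS, and 153 and 167 against 261 in MDA-MB231.

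**Figure D4:**
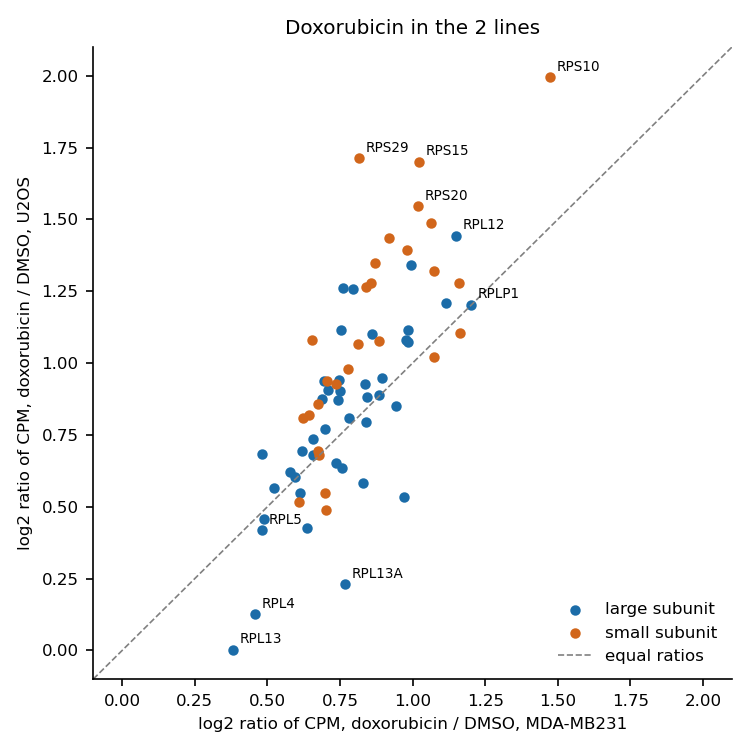
Log2 ratio of CPM with doxorubicin over DMSO, MDA-MB231 on the horizontal and U2OS on the vertical axis, with a dashed line at equal ratios. Genes shown had at least 5 CPM in the larger of the doxorubicin and DMSO libraries, in both lines. All points lie above 0 on both axes. Small subunit genes such as RPS29, RPS15 and RPS20 are above the dashed line, and RPL13A, RPL4 and RPL13 are below it.

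Line by line, with 1 library against 1 and so no test, the doxorubicin median was 0.90 in U2OS and 0.77 in MDA-MB231, beside -0.02 and -0.10 over all genes at that level. All 72 genes with at least 5 CPM in the larger of the 2 libraries were above their DMSO library in each line. RPL7 in U2OS (68 reads with DMSO, 111 with doxorubicin) entered through its doxorubicin library, so its place above DMSO was favoured by the floor. In U2OS 58 of 72 were higher by 1.5-fold or more (27.2% of all genes) and 28 by 2-fold or more (14.3%), and in MDA-MB231 65 (21.7%) and 11 (8.19%). The small subunit median exceeded that of the large subunit by 0.25 in U2OS (1.08 and 0.83) and by 0.09 in MDA-MB231 (0.84 and 0.75). For scale, MDA-MB231 DMSO replicate 2 over replicate 1 gave a median of -0.01 with single genes from -0.55 to 0.43, and none of its 72 genes was higher or lower by 1.5-fold (3.1% and 4.33% of all genes).

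Whether the lines differed in their doxorubicin response was tested with a term for doxorubicin in U2OS. No ribosomal protein gene was called among 75, and none of 16530 genes was (0.0%), by edgeR; at an unadjusted p under 0.05 there were 2 of the 75, and DESeq2 called 575 genes of all, none of them in the family. The largest fitted differences, U2OS minus MDA-MB231, were 0.62 ± 0.29 for RPS29, 0.47 ± 0.19 for RPS20 and 0.45 ± 0.23 for RPS15, and on the other side -0.57 ± 0.71 for RPL36A and -0.56 ± 0.22 for RPL13A (SE). The median was 0.17 for the small and 0.01 for the large subunit. RPS29 had 104 CPM with DMSO and 341 with doxorubicin in U2OS, and 103 and 70.2 against 181 in MDA-MB231, where its 2 DMSO libraries were themselves apart.

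Etoposide values of the family lay mostly below 0, and were smaller in size than those of doxorubicin. With etoposide 11 of 75 genes fell and none rose by edgeR, with a median log2 fold change of -0.25, against 0.02 over all genes, of which 9.23% were called lower and 7.97% higher. The median was -0.34 for the large subunit, with 10 of 45 genes called lower, and -0.20 for the small subunit, with 1 of 30. Among genes with a mean of at least 100 CPM the median over all genes was -0.17 and 19.9% were called lower, against 10 of 60 of the family, so the called share is like that of other abundant genes and the family's median is closer to theirs. The number of calls rests on the analysis: it was 27 with DESeq2, 2 with scaling by total counts, 4 without a filter on low counts, 4 with the etoposide and DMSO libraries alone and 0 to 15 when 1 library was left out, with 5 or fewer without any 1 of the 9 libraries that are not doxorubicin. The etoposide library was the lowest of its line in both lines for 42 of the 75 genes (29 large, 13 small), against 10.8% of all genes tested. This order was not counted among abundant genes alone.

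RPL22, at the rim of the exit tunnel and dispensable for translation in many cells, had the lowest called value. It had 116 CPM with DMSO and 69.2 with etoposide in U2OS, and 160 and 134 against 97.4 in MDA-MB231. Both etoposide values lie below all others of their line, and the log2 fold change was -0.72 ± 0.13 (SE; edgeR adjusted p = 0.0115). RPL5 had 423 CPM with etoposide in U2OS and 390 in MDA-MB231, against the DMSO levels given above, at -0.57 ± 0.12 (SE; edgeR adjusted p = 0.0193). RPL15, part of the core of the large subunit, had 279 CPM with DMSO and 193 with etoposide in U2OS, and 475 and 471 against 326 in MDA-MB231, at -0.56 ± 0.12 (SE; edgeR adjusted p = 0.02). For these 3 genes no other library of the line was as low, but each lost its call without MDA-MB231 DMSO replicate 1, the U2OS DMSO library or the MDA-MB231 etoposide library, and RPL5 and RPL15 also without the U2OS etoposide library. RPL27, RPL34, RPL13, RPL23A, RPL24, RPL29 and RPL14 were the other 7 large subunit genes called, between -0.53 and -0.44. These calls are weaker: RPL27 lost its call in 8 of 21 alternatives, RPL14 in 11, RPL13 and RPL24 in 13, and RPL34 and RPL29 in 14. The alternatives were not summarised for the etoposide value of RPL23A.

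RPS26, at the mRNA exit, had a lower value still (-0.83 ± 0.30, SE) but an edgeR adjusted p of 0.0909, with 3.25 to 14.6 CPM over all libraries. RPL11 (-0.37, edgeR adjusted p = 0.0893) and RPS6 (-0.34, 0.0844) did not pass. The stalk genes were near 0 with etoposide, at 0.22 for RPLP1, 0.05 for RPL12, -0.02 for RPLP2 and -0.06 for RPLP0. RPS10, at 0.38 ± 0.27 (SE), had the highest value here too, without passing the test (edgeR adjusted p = 0.346).

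**Figure D5:**
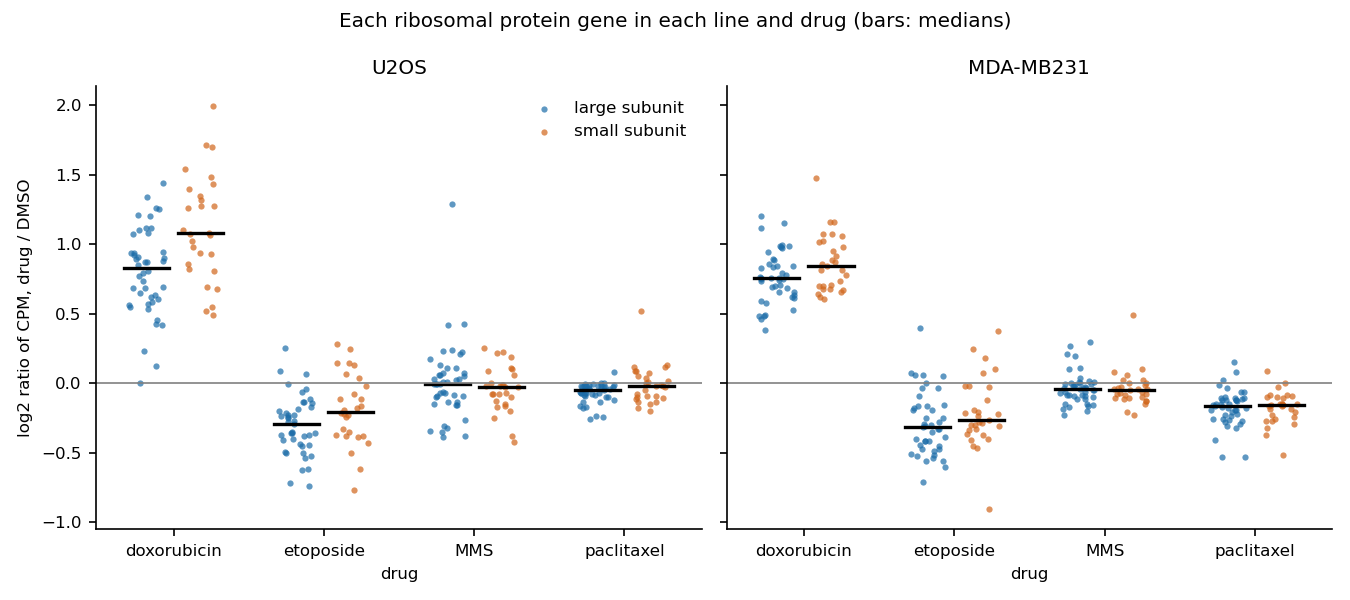
Log2 ratio of CPM against the DMSO library of the same title form for each gene with at least 5 CPM, by drug, in U2OS (left) and MDA-MB231 (right), with bars at the subunit medians. The doxorubicin points lie above 0 in both lines, with the small subunit median at 1.08 in U2OS. The etoposide points lie mostly below 0, while the MMS and paclitaxel medians lie near it. Single points in U2OS reach 1.29 with MMS (RPL36A) and 0.52 with paclitaxel.

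In single lines the etoposide median was -0.25 in U2OS and -0.30 in MDA-MB231, with 61 of 71 and 62 of 72 genes below DMSO. Of 71 genes with at least 5 CPM in both lines 56 were lower in both (41.2% of all genes), but 2 by 1.5-fold or more (12.3%). Lower values were thus frequent in the family and large ones rare, set against all genes. Abundant genes alone, whose fitted etoposide median was -0.17, were not counted in this way.

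MMS left the family near its DMSO level. No gene was called by edgeR (10.4% of all genes were), 2 of 75 had an unadjusted p under 0.05, and DESeq2 called 1. The median was -0.05 (-0.04 over all genes), with -0.05 for the large and -0.06 for the small subunit. The highest values, those of RPS27 and RPL36A, came from genes with few reads. RPS27, at 1.03 ± 0.42 (SE), had 1.33 CPM with DMSO and 4.83 with MMS in U2OS, but 1.94 against 2.09 in MDA-MB231, and its value ranged from 0.11 to 1.69 over the alternatives. RPL36A was at 0.74 ± 0.39 (SE), on the levels given above. In both, the U2OS ratio was the larger one. RPS28 (0.33 ± 0.25) and RPL15 (0.32 ± 0.12) came next (SE). RPL15 was well counted, with 5440 to 16008 reads a library, and had an edgeR adjusted p of 0.119. At the other end stood RPS25 (-0.30 ± 0.16), RPS15 (-0.26 ± 0.17), RPL36 (-0.26 ± 0.14) and RPS29 (-0.26 ± 0.21) (SE). The single-line medians were -0.02 in U2OS, which turned to 0.05 with scaling by total counts, and -0.05 in MDA-MB231.

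Paclitaxel gave no call in the family and none among the 15888 genes (0.0%) by edgeR, with 0 of the 75 at an unadjusted p under 0.05, and DESeq2 called none of the 75. The median was -0.12. In U2OS it was -0.04 and in MDA-MB231 -0.16, and 54 of 71 genes were lower than DMSO in both lines, against 36.1% of all genes, none of them by 1.5-fold (0.00984% of all genes). RPS27 (-0.59 ± 0.45), RPL36A (-0.50 ± 0.41), RPL41 (-0.43 ± 0.21) and RPL7 (-0.40 ± 0.36) had the lowest values and RPS10 (0.31 ± 0.27) the highest (SE), and none of these passed the test.

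Set directly against the other drugs, doxorubicin was higher throughout. These 3 contrasts share the doxorubicin libraries and are not independent of each other. Against etoposide 72 of 75 genes were called higher and none lower by edgeR (24.1% of all genes higher, 22.3% lower), with a median difference of 1.10 in log2 fold change. Among genes with a mean of at least 100 CPM 44.4% were called higher, with a median of 0.37, and 60 of 60 of the family there. RPS26 had the largest difference, 2.03 ± 0.32 (SE; edgeR adjusted p = 0.00109), at 14.6 CPM with doxorubicin and 3.84 with etoposide in U2OS, and 14.3 and 3.25 in MDA-MB231. RPL36A, RPL7 and RPS27 were not called. Against paclitaxel 73 were called higher and none lower (20.2% higher, 20.1% lower), with a median of 0.97. Against MMS 65 were called higher and 1, RPL36A at -2.02 ± 0.48 (SE), lower (22.3% higher, 20.4% lower), with a median of 0.90. Without the U2OS MMS library the number called against MMS was 34.

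The lines differed in single members in both directions. With drug effects held equal, 28 of 75 genes were higher and 17 lower in U2OS by edgeR, with a median of 0.15. Of all genes 31.9% were higher and 26.5% lower. Among genes with a mean of at least 100 CPM 25.8% were higher, against 25 of 60 of the family. In that group 34.6% were lower, against 13 of 60. The spread in this contrast comes from differently treated libraries of each line, so its p-values do not measure differences between separate cultures. RPS28, a head protein at the mRNA exit, had 0.86 to 2.34 CPM (18 to 48 reads) in U2OS and 24.0 to 55.6 CPM in MDA-MB231, a log2 difference of -4.60 ± 0.20 (SE; edgeR adjusted p = 4.79e-07). The groups of libraries were far apart. RPS28 still rose with doxorubicin (0.98 ± 0.26, SE), at 0.92 CPM with DMSO and 2.34 with doxorubicin in U2OS, and 28.5 and 24.9 against 55.6 in MDA-MB231. RPS20 (1.65 ± 0.12), RPLP1 (1.59 ± 0.10), RPL41 (1.47 ± 0.15) and RPL4 (1.17 ± 0.10) were higher in U2OS, and RPL15 (-0.71 ± 0.09) and RPL6 (-0.63 ± 0.09) higher in MDA-MB231 (SE). How far reads lost to near-identical copies differ between the lines was not tested.

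Genes that work with the family were read for comparison, against 21.9% of all genes called higher and 20.6% lower with doxorubicin, and 7.97% and 9.23% with etoposide. FAU, which encodes a small subunit protein fused to a ubiquitin-like protein and falls outside the symbol rule, rose with doxorubicin by 1.22 ± 0.14 (SE), within the range of the family. Of 20 translation genes known for TOP mRNAs 11 rose and 2 fell, with a median of 0.43: EIF3H rose by 1.05, EEF1A1 was at 0.35 (edgeR adjusted p = 0.112), and the helicase gene EIF4A2 and its partner EIF4B fell by 1.76 and 1.25. With etoposide 8 of these 20 fell and none rose, with a median of -0.36. Of 76 mitochondrial ribosomal protein genes 16 rose and 18 fell with doxorubicin (median -0.05), shares near those of all genes, whereas of 83 tested nuclear genes of the respiratory chain 69 rose and 1 fell (median 0.91). Of 7 tested paralogs of ribosomal proteins RPL7L1 fell (-0.78) and RPL10L rose by 1.33 (edgeR adjusted p = 0.0495), with 19.0 and 49.0 CPM in U2OS but at most 0.14 CPM in MDA-MB231, while RPL22L1 (0.51) and the p53-responsive RPS27L (0.45) did not pass. With etoposide RPL22L1 fell by 1.07. Among 10 regulators of the family 5 fell with doxorubicin and none rose, RPTOR by 1.86 and LARP1 by 1.10, and LARP1 also fell with etoposide, by 1.22.

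Within the family 2 other properties were set against the doxorubicin values. The 45 tested genes with the pyrimidine run at the annotated start had a median of 0.85 and the 16 tested genes whose windows lack it had 0.78. Across the 75 genes Spearman's rho with coding length (GENCODE v29) was -0.37, and with mean CPM 0.05. The shorter genes, with up to 456 coding bases, had a median of 0.92 and the longer ones 0.77. Over all 13359 tested genes with a coding length, 84.1% of those tested, rho with length was -0.12. The points share the same libraries and the genes are not independent replicates, so these are descriptions.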

How the data were processed

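The authors deposited, for each of the 11 libraries, whole-number read counts per gene symbol with 5 summary rows, which stayed out of library sizes and tests. Base calls came from CASAVA 1.8.2, alignment from TopHat2 2.0.8b and counting from HTSeq, per the submitters' processing notes, which name hg19 (and mm9). How RNA was selected and whether counting used strand is not given in the sources used here. Reads of a gene and an antisense partner may thus have been pooled. Total RNA was extracted, per the labels' protocols.

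One fit in edgeR 4.0.16 (R 4.3.3; robust quasi-likelihood, TMM, filterByExpr) held all 11 libraries, a term for each of 4 drugs and 3 block levels, U2OS plus MDA-MB231 split by whether the title gives 8 h, leaving 4 residual degrees of freedom (3 with the line term). The block pairs libraries of the same line. edgeR's common BCV came to 0.213. A gene counts as called at an adjusted p under 0.05 over all genes tested. SE is the fitted log2 value over the root of its F statistic. Single-line ratios add 0.5 CPM. On simulated counts 100 genes were changed by each fold, drawn at random over all levels. The doxorubicin contrast (15629 genes) recovered 33% of 2-fold and 69% of 4-fold changes with 8 false calls. In the data 42.5% of genes were called with doxorubicin, far more than were changed here. The simulation thus does not measure recovery in the family, most of which is abundant. Recovery was 31% and 70% for etoposide (19 false calls, 15621 genes), 31% and 77% for MMS (9 false calls, 15635 genes) and 35% and 70% for paclitaxel (18 false calls, 15645 genes). In all 4 contrasts the false calls were a larger share of the simulated calls than the threshold of 0.05. The excess was largest for etoposide and paclitaxel, so etoposide calls with adjusted p close to the threshold are to be read with caution.

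The family as a subject, the lists and the rule for which members to name (the 4 highest and 4 lowest per drug, further extremes by subunit and line, all calls or misses where few, and fixed role groups) were chosen with earlier results of these data known. Related lists were 20 TOP translation genes, 10 regulators, mitochondrial ribosomal proteins, respiratory chain genes, paralogs and ubiquitin fusions. Markers of osteoblast, basal, luminal and blood cells summed to 68.6 to 147, 1386 to 5472, 180 to 761 and 15.3 to 55.0 CPM in U2OS and 45.2 to 84.0, 1910 to 6330, 162 to 364 and 97.4 to 236 CPM in MDA-MB231. Alternatives were DESeq2 1.42.0, limma-voom (limma 3.58.1), other scalings, filters, blocks and sets of libraries. Some genes of the family and of these lists are counted but not reported here by name.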

Additional observations from a re-analysis of the deposited data

Results flagged for a closer look

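A signal outside the gene counts moved with doxorubicin. Reads aligned to several places, which the counting left out, made up 37.5% of all reads of the U2OS doxorubicin library against 32.7% with DMSO, and 34.4% of the MDA-MB231 doxorubicin library against 30.0% and 30.4% in the DMSO libraries. Their genes are not known from these files, and their part in the rise of ribosomal protein counts was not tested. As a share of all reads tabulated in place of gene-assigned reads, ribosomal protein genes made up 2.12% with doxorubicin against 1.51% with DMSO in U2OS, and 1.97% against 1.36% and 1.33% in MDA-MB231.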

How the results depend on the processing

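No call of the named genes changed direction under the alternatives summarised for them, while untested values near 0, such as the MMS medians and subunit differences, changed sign. The fit without a replicate block, in which lines are not paired, called 30 genes for doxorubicin (69 with the block), 0 for etoposide, and 42, 26 and 22 for doxorubicin against etoposide, MMS and paclitaxel. With total counts in place of TMM the medians were 0.62 for doxorubicin (all genes -0.15), -0.13 for etoposide (all genes 0.15, 2 calls) and -0.019 for MMS. In single lines that scaling gave 0.60, -0.062, 0.047 and -0.018 for doxorubicin, etoposide, MMS and paclitaxel in U2OS and 0.66, -0.21, -0.066 and -0.15 in MDA-MB231. TMM factors computed without the family gave 0.92 for doxorubicin in U2OS, and the other MDA-MB231 DMSO library gave 0.82 for doxorubicin, -0.28 for etoposide and -0.17 for paclitaxel. DESeq2 called 27 genes for etoposide and 1 for MMS. Etoposide calls came to 4 with no filter and 4 with its own libraries alone. The MMS median was -0.026 with a minimum of 1 CPM in every library. The large minus small difference was -0.17 for etoposide with a block for line alone, 0.020 (limma-voom), -0.047 (no replicate block) and -0.0088 (MMS and its DMSO libraries alone) for MMS, and -0.075 for paclitaxel with no replicate block. The cause was not tested.

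Leaving out 1 library gave 57 to 70 calls for doxorubicin, 66 to 72, 34 to 67 and 53 to 72 against etoposide, MMS and paclitaxel, 0 to 15 for etoposide, 36 to 44 between the lines, and 0 for MMS, paclitaxel and the line term. Etoposide calls were 5 or fewer without U2OS DMSO, etoposide, MMS or paclitaxel, or without either MDA-MB231 DMSO library or its etoposide, MMS or paclitaxel library. Medians ranged from 0.77 to 0.86 for doxorubicin, -0.33 to -0.24 for etoposide, -0.079 to -0.016 for MMS and -0.17 to -0.07 for paclitaxel, and large minus small differences from -0.24 to -0.13, -0.20 to -0.042, -0.0089 to 0.086 and -0.066 to 0.014. The line term and the contrast of lines could not be fitted with fewer drugs, nor the line term without a doxorubicin library. Over the named genes and their alternatives 176 values lost a call, 18 gained one, and 2242 stayed on the same side of the threshold, values never called included. Genes under 10 CPM are limited by depth.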
